A study of Homo sapiens with 8 samples.

Results

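The genes described here are 10 genes of YAP and TAZ signalling: the connective tissue growth factor gene CTGF, the related CYR61, the cardiac ankyrin repeat gene ANKRD1, the angiomotins AMOT, AMOTL1 and AMOTL2, the kinase gene LATS2, the coactivator genes YAP1 and WWTR1 (which encodes TAZ), and the transcription factor gene TEAD1. They were chosen by name, for their place in the pathway, from 43317 gene names on the array. The current symbols of CTGF and CYR61 are CCN2 and CCN1, and the names on the array are kept here. CTGF is also a reported target of miR-30, and AMOT is one of the study's candidate targets of miR-139-3p. That list was chosen partly on the miR-139-3p array used here, so the AMOT value on it is not independent evidence.

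Gene expression was measured on 8 Agilent arrays with 2 channels. Each array set total RNA of a cancer cell line transfected with 1 mature miRNA (Cy5) against mock RNA of the same line (Cy3), labelled as no transfection. HCT116, a colorectal cancer line, received the 5p or the 3p strand of miR-139 or of miR-143. PANC-1, a pancreatic cancer line, received miR-30a-5p, miR-30a-3p, miR-30c-5p or miR-30c-2-3p. Transfection was with Lipofectamine RNAiMAX. No array carried a control miRNA, so the transfection itself and the miRNA cannot be told apart in any ratio. Each miRNA was on 1 array, so no ratio below carries an error over replicates or a p-value, and a gene is called 2-fold higher or lower when its log2 ratio is at least 1 away from 0.

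YAP and TAZ are coactivators that bind TEAD factors in the nucleus and switch on genes such as CTGF, CYR61 and ANKRD1. The kinases LATS1 and LATS2 phosphorylate YAP and TAZ and keep them out of the nucleus. Angiomotins bind YAP at cell junctions, and LATS2 and AMOTL2 are themselves known targets of YAP, so both can act as feedback inhibitors. The pathway is known for linking cell density and cell shape to growth in epithelial cells and in the tumours that arise from them.

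The mature sequences of the 8 miRNAs, from RefSeq (GRCh38.p14), are given 5′ to 3′ because the seed (bases 2 to 8, in capitals) sets which transcripts a miRNA pairs with. miR-30c-5p and miR-30a-5p share 1 seed, and the other 6 seeds differ from it and from each other.
miR-139-5p: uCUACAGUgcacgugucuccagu
miR-139-3p: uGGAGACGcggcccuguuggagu
miR-143-5p: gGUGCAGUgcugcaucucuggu
miR-143-3p: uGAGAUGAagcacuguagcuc
miR-30c-5p: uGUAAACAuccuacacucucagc
miR-30a-5p: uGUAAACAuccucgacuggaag
miR-30c-2-3p: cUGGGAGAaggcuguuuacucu
miR-30a-3p: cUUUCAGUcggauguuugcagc

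Of the 10 genes, 9 were detected on all 8 arrays, that is, the scanner software called the probe used well above background in Cy3, Cy5 or both. ANKRD1 was not well above background in either channel on any array, and no ratio is given for it. The arrays detected 20107 to 22063 genes with a ratio. The median log2 ratio of all detected genes lay between 0.00 and 0.02. The mock channels of the miR-30c and miR-30a arrays, like those of the miR-139 and miR-143 arrays, differed more between precursors than within one: 193 to 206 of 19505 genes were 2-fold apart between precursors in HCT116, against 2 to 3 within one, and 34 to 44 against 0 to 6 in PANC-1. All arrays lay on 1 slide, with HCT116 in column 1 and PANC-1 in column 2. Between lines, cell line and slide column cannot be told apart. Of 6 markers each, CDH1, EPCAM and CDX2 were higher in mock HCT116, and VIM, CDH2, ZEB1 and SPARC in mock PANC-1 (limma adjusted p under 0.05), while the HCT116 marker LGALS4 was higher in PANC-1. The PANC-1 marker KRT7 also ran against its list, at a mean log2 level of 11.29 in HCT116 and 9.20 in PANC-1 (limma adjusted p = 0.0861), and KRT19 did not pass (limma adjusted p = 0.224). CDH17 in HCT116 and FN1 in PANC-1, a marker of each, were not well above background on any array.

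Among the 9 detected genes, 3 were at least 2-fold higher after miR-139-3p (CYR61, AMOTL2 and LATS2), 1 after miR-143-5p (CYR61), 1 after miR-30c-5p (CTGF) and 1 after miR-30a-5p (CTGF). Only TEAD1 after miR-30a-3p was at least 2-fold lower. No member passed the 2-fold rule on the miR-139-5p, miR-143-3p and miR-30c-2-3p arrays. RNA came from whole cultures, so fewer expressing cells and less RNA per cell cannot be told apart.

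**Figure D1:**
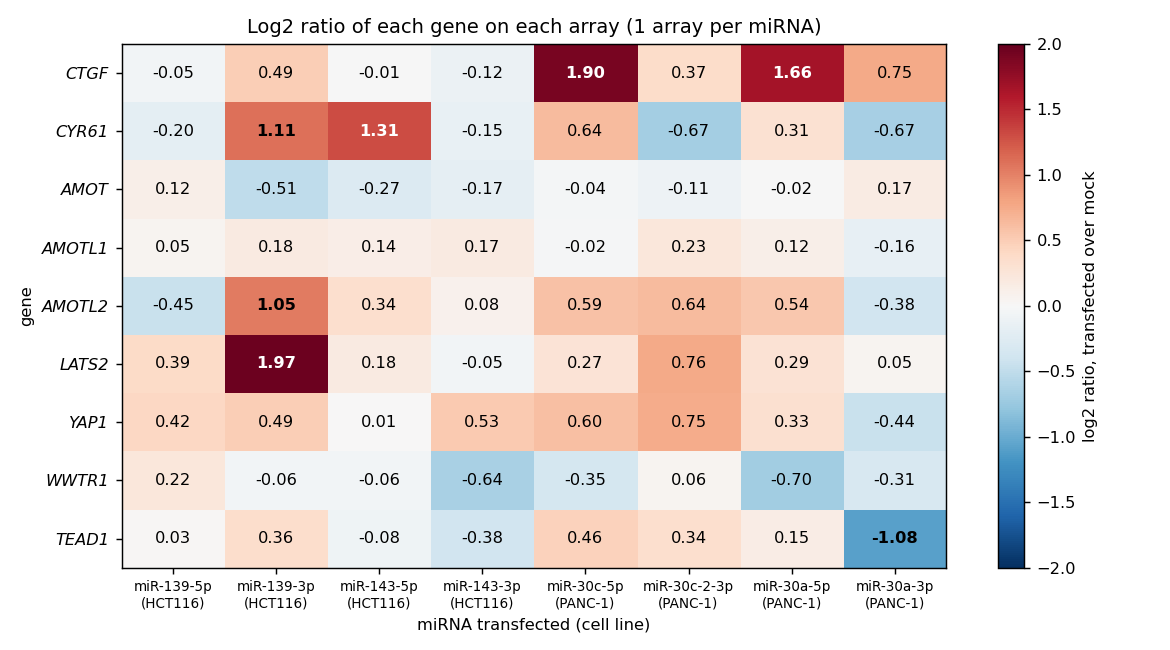
Log2 ratio of transfected over mock RNA for the 9 detected genes (rows) on the 8 arrays (columns, 1 array per miRNA), with colour running from -2 (blue) to 2 (red) and values of at least 2-fold in bold. CTGF is highest on the arrays of miR-30c-5p and miR-30a-5p at 1.90 and 1.66, LATS2 reaches 1.97 on the miR-139-3p array, and TEAD1 on the miR-30a-3p array is the lowest value at -1.08.

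These counts are set against all detected genes. After miR-139-3p, 2.11% of detected genes were at least 2-fold higher and 2.82% at least 2-fold lower. After miR-139-5p these shares were 0.0587% and 0.201%. For miR-143-5p they were 0.356% higher and 1.0% lower, and for miR-143-3p they were 0.517% higher and 0.925% lower. In PANC-1, 0.747% were higher and 0.445% lower after miR-30c-5p, and 0.306% were higher and 0.263% lower after miR-30a-5p. After miR-30c-2-3p 1.71% were higher and 4.14% lower, and after miR-30a-3p 0.372% were higher and 1.1% lower. The balance of these calls depended on the scaling. With loess, the higher genes were 22.6% to 62.7% of the calls over the 8 arrays. With median centring in its place they were 42.8% to 97.7%, and with the log ratio of the scanner software 43.7% to 61.6%. Median centring also moved the median of all detected genes up by 0.20 on the miR-30c-5p array, by 0.14 on the miR-30a-5p array and by 0.28 on the miR-30a-3p array.

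CTGF encodes a secreted matrix protein and is among the most used readouts of YAP activity. Its log2 ratio was 1.90 after miR-30c-5p, 1.66 after miR-30a-5p, 0.75 after miR-30a-3p and 0.37 after miR-30c-2-3p in PANC-1. All 4 PANC-1 values were above 0, and the miRNAs that share a seed gave the highest pair. For a reported miR-30 target that pair was higher than mock, not lower, and the reason was not tested. The changes of 3.73-fold and 3.15-fold placed CTGF 11th from the top of 20887 detected genes and 10th of 20944. In HCT116 the log2 ratio was -0.05 after miR-139-5p, 0.49 after miR-139-3p, -0.01 after miR-143-5p and -0.12 after miR-143-3p.

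CTGF mock levels (log2 Cy3 level, quantile normalised) in PANC-1 were 8.06 and 8.05 on the miR-30c arrays and 9.01 and 9.07 on the miR-30a arrays, a 1.98-fold gap between precursors. On the scale shared by both channels, the 4 mock levels ran from 8.18 to 9.28. The transfected levels of miR-30c-5p (10.08), miR-30a-5p (10.85) and miR-30a-3p (10.03) lay above all of them, and that of miR-30c-2-3p (8.55) did not. Set against the mean of the 4 PANC-1 mock channels, the log2 ratio was 1.35 after miR-30c-5p, 2.11 after miR-30a-5p, 1.32 after miR-30a-3p and -0.13 after miR-30c-2-3p. The calls for miR-30c-5p and miR-30a-5p thus held with either reference, the value for miR-30a-3p passed the 2-fold rule with the pooled one (and, at 1.45, with median centring), and that for miR-30c-2-3p changed sign. In HCT116 the gene was dim. After miR-139-3p its log2 ratio was 1.48 with a normexp offset of 1 and 1.88 with the scanner software's ratio, against 0.49 with the offset of 50, which draws the ratios of dim probes toward 0.

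The probe for CTGF lies on the minus strand at chr6:132270130-132270189 (hg19). The promoter of CTGF, taken from RefSeq as 250 bases before to 50 after the start, holds GGAATG, the core of TEAD sites, 3 times. One pair of copies lies 104 and 95 bases before the start, in this stretch at chr6:131951459-131951488 (GRCh38.p14, minus strand), with the motif in capitals.
CTGF promoter: ggaaggtggggaGGAATGcgaGGAATGtcc
Of 35116 promoters of 300 bases, 14.0% held the motif on either strand and 0.128% held it 3 times or more. Promoters were given for 8 of the 10 genes (10 promoters), and 5 of these held the motif: those of CTGF, ANKRD1 (2 copies), LATS2, YAP1 and 1 of the AMOTL2 promoters. A match is only a description of the letters.

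CYR61, a secreted relative of CTGF, was at least 2-fold higher in HCT116 after miR-139-3p and miR-143-5p. Its log2 ratio was -0.20 after miR-139-5p, 1.11 after miR-139-3p, 1.31 after miR-143-5p and -0.15 after miR-143-3p. The 2 strands of each precursor lay on opposite sides of 0, but not under each setting: miR-139-5p was at 0.03 with median centring (-0.07 relative to the all-gene median of that setting), and both strands of miR-143 were above 0 against the pooled mock channels. The value of 1.31 was the 19th highest of 20498. In PANC-1 the log2 ratio was 0.64 after miR-30c-5p, 0.31 after miR-30a-5p, -0.67 after miR-30c-2-3p and -0.67 after miR-30a-3p. There the 5p strands were above 0 and the 3p strands below it, except that miR-30a-3p was at 0.27 with median centring, which is -0.03 relative to the all-gene median of that setting.

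The mock level of CYR61 itself varied within HCT116. It was 8.69 and 8.89 on the miR-139 arrays and 10.77 and 10.71 on the miR-143 arrays, 3.87-fold apart between precursors. This gap was larger than the change on either array that passed the rule. With the mean of the 4 HCT116 mock channels as reference, the log2 ratio was 0.28 after miR-139-3p, 2.33 after miR-143-5p, 0.86 after miR-143-3p and -1.32 after miR-139-5p. The call for miR-143-5p held with that reference and the call for miR-139-3p did not. Mock and transfected levels of PANC-1 were higher than those of HCT116 throughout. The probe lies at chr1:86048953-86049012 (hg19, plus strand).

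**Figure D2:**
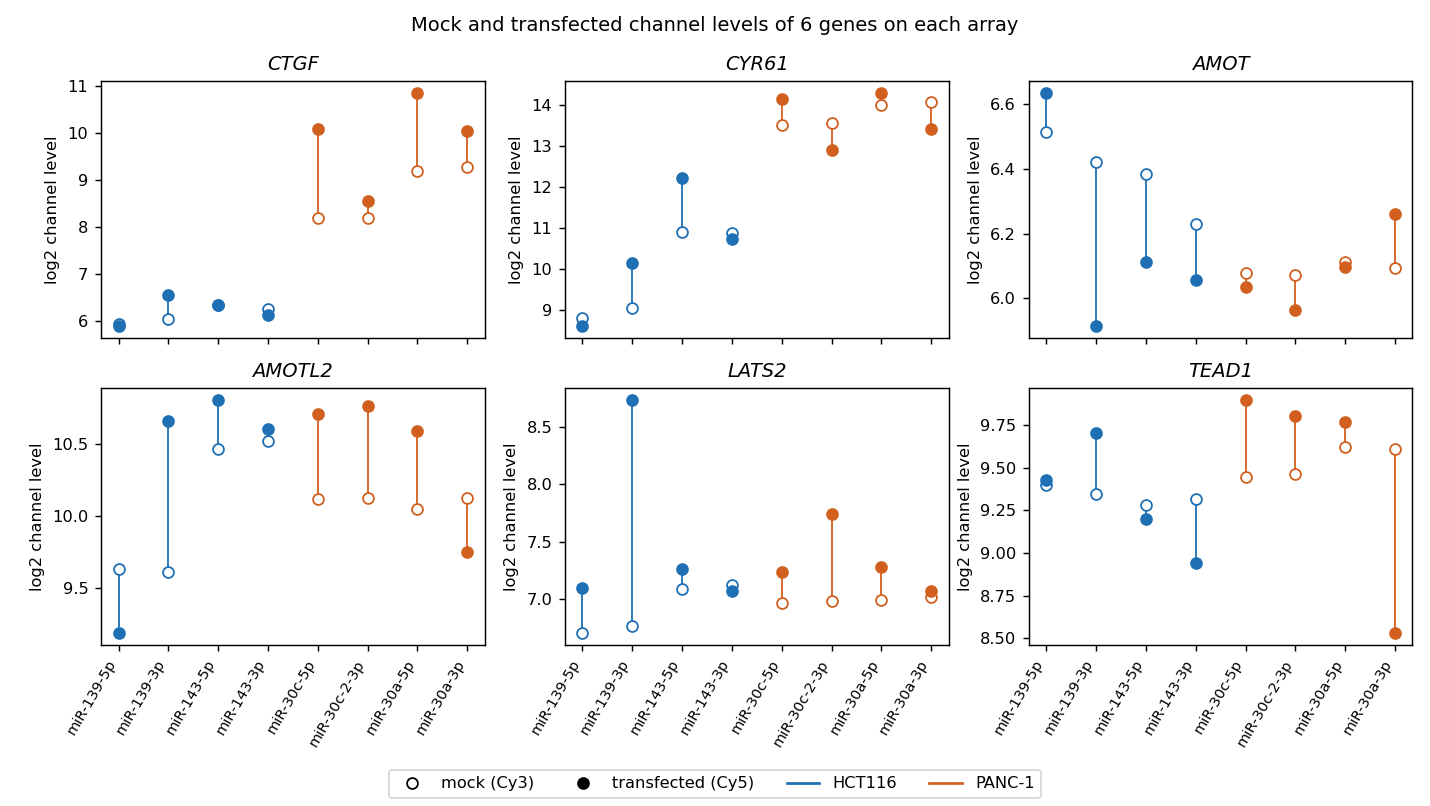
Log2 levels of the mock (Cy3, open) and transfected (Cy5, filled) channels of 6 genes on each array, after loess and scaling between arrays, with HCT116 in blue and PANC-1 in orange and a separate vertical scale in each panel. For CTGF the filled points of miR-30c-5p and miR-30a-5p stand well above their open points, and for CYR61 the open points of HCT116 lie near 9 on the miR-139 arrays and near 11 on the miR-143 arrays.

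LATS2, the kinase that restrains YAP and TAZ, had the highest ratio of the 9 genes with the processing used here. Its log2 ratio in HCT116 was 0.39 after miR-139-5p, 1.97 after miR-139-3p, 0.18 after miR-143-5p and -0.05 after miR-143-3p. The miR-139-3p value, 3.91-fold over mock and rank 41 from the top of 20708, stood apart from the other 7 arrays. In PANC-1 it was 0.27 after miR-30c-5p, 0.76 after miR-30c-2-3p, 0.29 after miR-30a-5p and 0.05 after miR-30a-3p. Over the 7 processing settings the miR-139-3p value ran from 1.95 to 2.86, and each was above 1. On the scale shared by both channels, the log2 mock level of LATS2 was 6.77 on that array and the transfected level 8.74, and the 4 mock levels of HCT116 lay between 6.71 and 7.12. The probe lies at chr13:21547929-21547988 (hg19, minus strand). The LATS2 promoter holds 1 copy of GGAATG, 9 bases after the start, at chr13:21061560-21061589 (GRCh38.p14, minus strand), shown because LATS2 and CTGF share this motif.
LATS2 promoter: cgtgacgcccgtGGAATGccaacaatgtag

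AMOTL2, an angiomotin that binds YAP and is a YAP target, had a log2 ratio of -0.45 after miR-139-5p, 1.05 after miR-139-3p, 0.34 after miR-143-5p and 0.08 after miR-143-3p in HCT116. The 2 strands of miR-139 were again on opposite sides of 0, in all 7 settings. In PANC-1 the log2 ratio was 0.59 after miR-30c-5p, 0.64 after miR-30c-2-3p, 0.54 after miR-30a-5p and -0.38 after miR-30a-3p. The first 3 of these were above 0 in each setting, and the last was 0.34 with median centring. The AMOTL2 mock level in HCT116 was 9.47 on average over the miR-139 arrays and 10.33 over the miR-143 arrays, 1.82-fold apart. With the pooled mock reference the miR-139-3p value was 0.68, below the 2-fold rule. The probe lies at chr3:134074742-134074801 (hg19, minus strand).

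AMOT, the founding angiomotin, was dim on all arrays, with mock levels of 6.18 to 6.43 in HCT116 and 6.03 to 6.06 in PANC-1. Its log2 ratio was 0.12 after miR-139-5p, -0.51 after miR-139-3p, -0.27 after miR-143-5p and -0.17 after miR-143-3p. In PANC-1 it lay between -0.11 and 0.17. The lowest value was that of miR-139-3p, the array on which the study partly chose this gene. This value was -0.95 without background correction, -1.75 with an offset of 1 and -2.13 with the scanner software's ratio, so that AMOT passed the 2-fold rule under the last 2 settings. Of its 3 probes only the one used, at chrX:112018514-112018573 (hg19, minus strand), was well above background on any array. The median over the 3 probes was -0.05.

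AMOTL1, the remaining angiomotin, lay between -0.16 and 0.23 on the 8 arrays. Its log2 ratio in HCT116 was 0.05 after miR-139-5p, 0.18 after miR-139-3p, 0.14 after miR-143-5p and 0.17 after miR-143-3p. In PANC-1 it was -0.02 after miR-30c-5p, 0.23 after miR-30c-2-3p, 0.12 after miR-30a-5p and -0.16 after miR-30a-3p. None passed the 2-fold rule. A second AMOTL1 probe, well above background on the 4 HCT116 arrays, went the other way there, at -0.0035 after miR-139-5p, -0.22 after miR-139-3p, -0.10 after miR-143-5p and -0.09 after miR-143-3p. The probes used for the 3 angiomotins, AMOT, AMOTL1 and AMOTL2 in that order, had log2 ratios of -0.51, 0.18 and 1.05 on the miR-139-3p array, and no test of the difference between them could be made with 1 array. For AMOTL1 the median over its probes was -0.02 there.

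**Figure D3:**
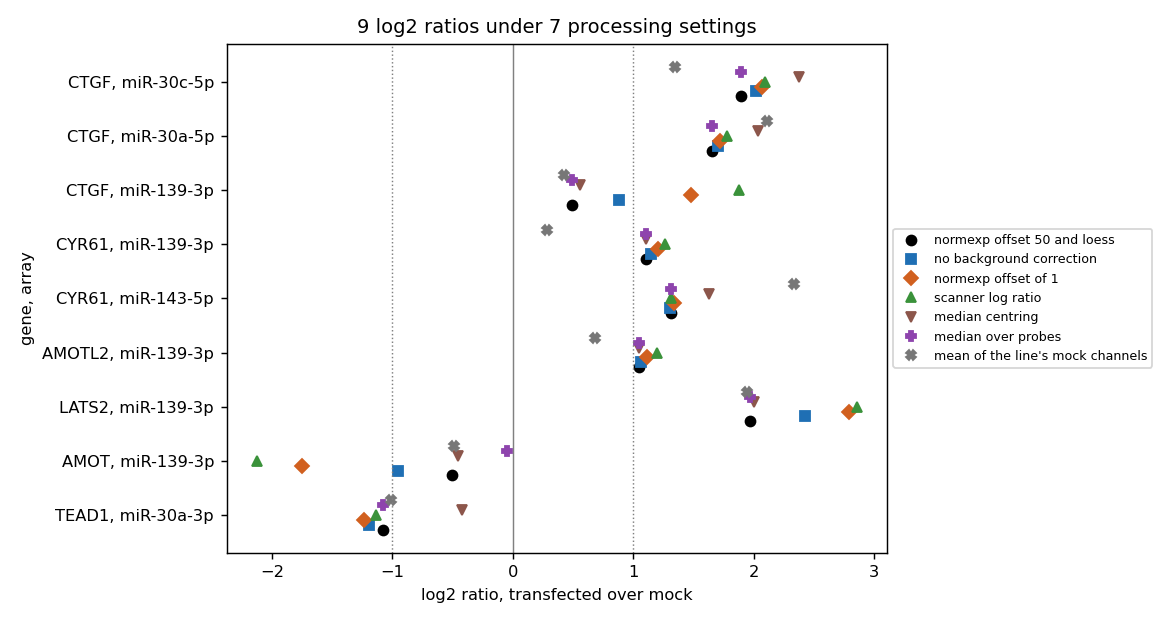
Log2 ratio of transfected over mock RNA for 9 pairs of gene and array under 7 processing settings (symbols), with dotted lines at 2-fold. CTGF after miR-30c-5p and miR-30a-5p and LATS2 after miR-139-3p lie beyond 1 in each setting. AMOT after miR-139-3p runs from -2.13 to -0.05, and CYR61 after miR-139-3p falls to 0.28 against the pooled mock channels. The AMOT value of -0.05 is the median over probes, of which only the one used was well above background.

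YAP1 and WWTR1 encode the coactivators. The YAP1 log2 ratio was 0.42 after miR-139-5p, 0.49 after miR-139-3p, 0.01 after miR-143-5p and 0.53 after miR-143-3p in HCT116. In PANC-1 it was 0.60 after miR-30c-5p, 0.75 after miR-30c-2-3p, 0.33 after miR-30a-5p and -0.44 after miR-30a-3p. YAP1 was thus above 0 on 7 of 8 arrays, but under 2-fold on each, and with median centring the miR-30a-3p value was 0.19, which is -0.11 relative to the all-gene median of that setting. Its probe, at chr11:102100584-102100643 (hg19, plus strand), was printed in 10 spots. On the miR-30a-3p array only 7 of these were used, without outlier spots, and the SD between spots was largest there. The SD of the log2 ratio between spots was 0.027 to 0.075, smaller than the ratio on every array but that of miR-143-5p. Such spots share 1 hybridisation, so this SD says nothing of the spread between cultures.

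The WWTR1 log2 ratio was 0.22 after miR-139-5p, -0.06 after miR-139-3p, -0.06 after miR-143-5p and -0.64 after miR-143-3p. In PANC-1 it was -0.35 after miR-30c-5p, 0.06 after miR-30c-2-3p, -0.70 after miR-30a-5p and -0.31 after miR-30a-3p. The lowest values were those of miR-30a-5p and miR-143-3p. The miR-143-3p value passed the 2-fold rule with an offset of 1 at -1.11 and with the scanner software's ratio at -1.14. Of the 4 negative values on the miR-143-3p and miR-30 arrays, those of miR-30c-5p and miR-30a-3p turned positive with median centring, to 0.09 and 0.33, and were -0.12 and 0.03 relative to the all-gene median of that setting. After the miR-30 guide strands, the coactivators lay on opposite sides of 0 with loess: YAP1 at 0.60 and WWTR1 at -0.35 on the miR-30c-5p array, and 0.33 and -0.70 on the miR-30a-5p array. A second WWTR1 probe had log2 ratios between -0.10 and 0.18. It lay on the other side of 0 on the arrays of miR-139-5p (-0.05), miR-139-3p (0.18) and miR-30a-3p (0.05). On the miR-143-3p array it was at -0.06, against -0.64 for the probe used. The probe used is at chr3:149238593-149238652 (hg19, minus strand).

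TEAD1, the DNA-binding partner of YAP and TAZ, had a log2 ratio of 0.03 after miR-139-5p, 0.36 after miR-139-3p, -0.08 after miR-143-5p and -0.38 after miR-143-3p. In PANC-1 it was 0.46 after miR-30c-5p, 0.34 after miR-30c-2-3p, 0.15 after miR-30a-5p and -1.08 after miR-30a-3p. The last value, 2.12-fold below mock, was the 191st lowest of 22063 and well below the other 7 arrays. With median centring it was -0.42, or -0.72 relative to the all-gene median of that setting, and no longer passed the 2-fold rule. Mock levels of TEAD1 in PANC-1 lay between 9.29 and 9.49. The probe lies at chr11:12965225-12965284 (hg19, plus strand). No heptamer complementary to bases 2 to 8 of any of the 8 miRNAs, or to bases 2 to 7 followed by A, was found in the 14 probes of the 10 genes, which are 60 bases long, so these letters are not in those windows.

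On the miR-30a-3p array, 6 of the 9 genes were below 0 with loess, but CYR61, AMOTL1, AMOTL2, YAP1 and WWTR1 were above 0 with median centring, where the median of all detected genes was 0.30. Relative to that median these 5 lay between -0.20 and 0.04. That array had the highest share of spots well above background in Cy5, at 51.4% against 45.8% to 48.6% on the others. The part of this difference in the result was not tested.

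The wider pathway was described with 20 other YAP and TAZ targets and 22 other Hippo genes. On the miR-30c-5p array 18 of the 20 targets were detected, with a median log2 ratio of 0.42 against 0.01 for all detected genes. Of these, 3 were at least 2-fold higher and 1 lower. The highest were NUAK2, a stress kinase, at 1.32, IGFBP3, a binding protein of insulin-like growth factors, at 1.24, and GADD45A, a growth arrest and DNA damage gene, at 1.24. IGFBP3 was dim, with a log2 mock level of 5.91, and the scanner software's log2 ratio for it was 3.60. Detection in either channel sufficed, so a dim gene could count where it was higher. IGFBP3 and CCDC80 counted here but not on the miR-30c-2-3p array. The mock channel of IGFBP3 was itself well above background on the other 3 PANC-1 arrays, so IGFBP3 did not need a rise to count. For CCDC80 this held in 2 of the 4 PANC-1 mock channels. The lowest were NT5E, the ectonucleotidase CD73, at -1.66, MYOF at -0.15 and AJUBA at -0.02. On the miR-30a-5p array the median of 18 targets was 0.32 against 0.01, with 1 at least 2-fold higher and 1 lower. IGFBP3, again dim with a log2 mock level of 6.03, was highest at 1.60 (3.33 with the scanner software's ratio). FSTL1 at 0.86 and NUAK2 at 0.81 followed, while NT5E was lowest at -2.06, followed by MYOF at -0.50 and AJUBA at -0.19.

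On the miR-139-3p array, where CYR61 and AMOTL2 were higher, the median of 15 detected targets was -0.14 against 0.01 for all genes, with 1 at least 2-fold higher and 2 lower. AJUBA, a LIM protein that binds LATS kinases, was highest at 1.74, GADD45A was at 0.99 and ARHGEF17 at 0.43, whereas F3, which encodes tissue factor, was at -1.48, FJX1 at -1.0 and NT5E at -0.60. On the miR-143-5p array, where CYR61 was also higher, the median was -0.20. There 2 of 15 detected targets were at least 2-fold lower, 0 higher, and 11 were below 0. Among all detected genes 1.0% were lower and 0.356% higher. F3 at -1.53, NT5E at -1.12 and MYOF at -0.86 were lowest, and NUAK2 at 0.53, DOCK5 at 0.29 and FSTL1 at 0.18 highest. The median on the remaining arrays was -0.01 for miR-139-5p, -0.04 for miR-143-3p, 0.00 for miR-30a-3p and -0.09 for miR-30c-2-3p. For miR-143-3p it was 0.25 against the pooled mocks, for miR-30c-2-3p it was 0.03 with median centring, and for miR-30a-3p -0.12 with an offset of 1 and 0.54 with median centring.

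All 22 other Hippo genes, from the upstream kinases to the TEAD factors, were detected on every array. Their median log2 ratio ran from -0.18 after miR-143-5p to 0.21 after miR-30c-5p. On the miR-30c-5p array 17 were above 0 and FRMD6, a relative of merlin, was the only one at least 2-fold higher, at 1.03, with TAOK2 at 0.94 and WWC1 at 0.85 next and DLG5 at -0.34, SCRIB at -0.17 and MAP4K4 at -0.14 lowest. On the miR-139-3p array NF2, which encodes merlin, an activator of LATS kinases, was at least 2-fold lower at -1.10. DLG5 at -0.62 and WWC1 at -0.32 were next, and STK3 at 0.52, MAP4K4 at 0.51 and TAOK1 at 0.44 were highest.

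**Figure D4:**
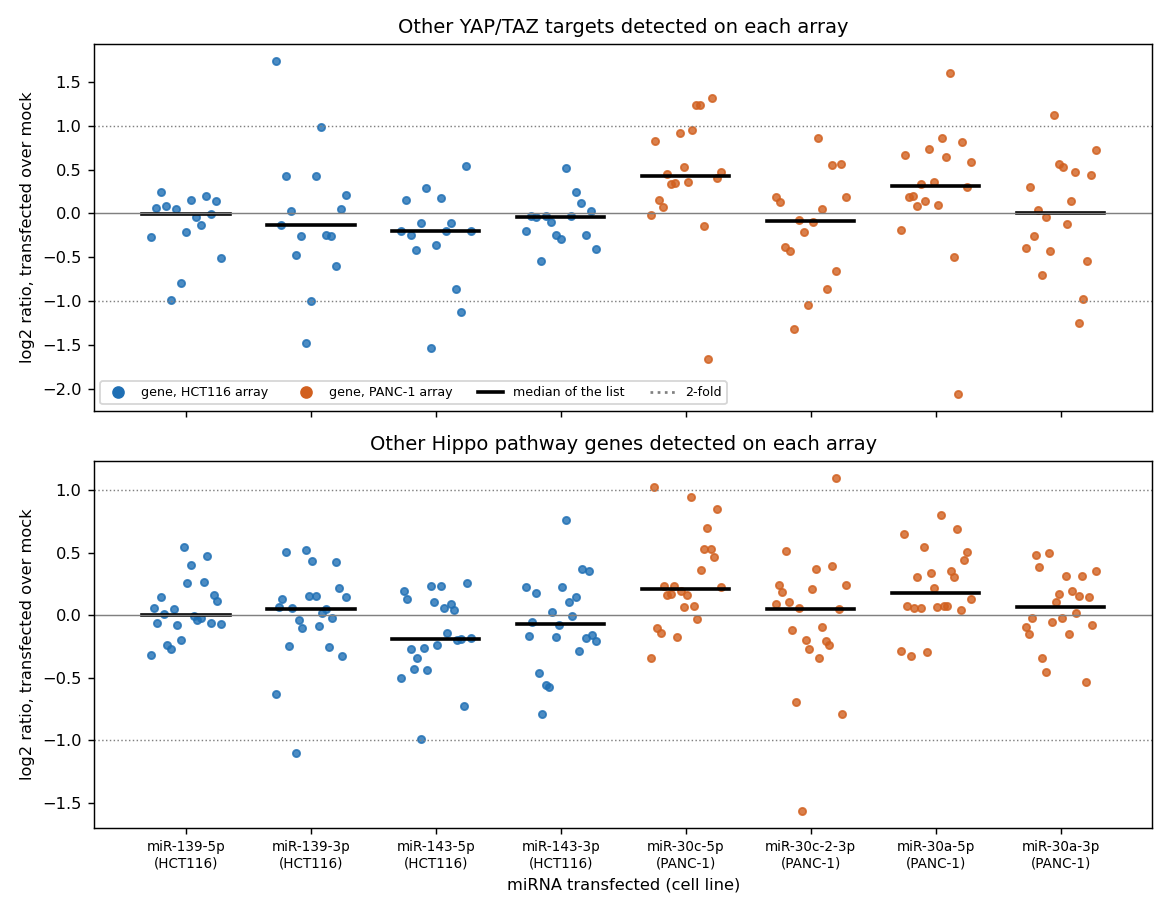
Log2 ratio of transfected over mock RNA of the other YAP and TAZ targets (top) and of the other Hippo genes (bottom) detected on each array, 1 point per gene, with the list median as a black bar and dotted lines at 2-fold. The target medians are highest on the arrays of miR-30c-5p and miR-30a-5p, at 0.42 and 0.32, where NT5E is the lowest point.

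The 3 genes whose log2 ratio over the 8 arrays was most like that of CTGF, among 17403 others detected on all arrays, were RAB43 (Pearson r = 0.977), ADRB1 (r = 0.966) and LOC102725127 (r = 0.962). ADRB1, which encodes the beta-1 adrenergic receptor, was at 1.12 after miR-30c-5p and 0.94 after miR-30a-5p, and RAB43 at 0.77 and 0.72. Those most like AMOT were LOXL3 (r = 0.975), RBBP7 (r = 0.974) and ME2 (r = 0.970), with -0.82, -0.34 and -0.92 after miR-139-3p. These are descriptions over 8 arrays of 4 precursors, and 1 array can set the order.

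The last comparison asked how the members differed between the 2 lines without a miRNA. The 2 mock channels of each precursor were averaged, which left 2 means per line, since the labels do not say whether both channels held 1 extract, and all genes were fitted with limma. In HCT116, 4 of the 9 tested members were lower than in PANC-1 at an adjusted p under 0.05 and 0 were higher, against 20.8% lower and 22.5% higher among all 19505 genes tested. Without adjustment, 2 members (AMOT and AMOTL1) were higher and 4 lower at a limma p under 0.05. Over all 19505 genes, 10427 passed that cut in either direction. The p-values measure only the spread between these mock means, which may be technical.

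WWTR1 mock levels were 7.12 to 7.32 in HCT116 and 8.54 to 8.91 in PANC-1, a difference of -1.50 ± 0.105 (SE, 2 means per line, limma adjusted p = 0.00337). The 4 channels of each line did not overlap. CTGF mock levels were 5.92 to 6.27 in HCT116 and 8.05 to 9.07 in PANC-1, a difference of -2.45 ± 0.379 (limma adjusted p = 0.0151). Both calls held in all 10 alternatives, with adjusted p up to 0.0375 for WWTR1 and up to 0.0473 for CTGF, but their size moved. The CTGF difference ran from -1.96 without the miR-30a mock mean to -4.50 with the scanner software's signal, and the WWTR1 difference from -0.69 as the median over probes to -1.93 with that signal.

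YAP1 mock levels were 8.41 to 8.46 in HCT116 and 8.79 to 8.91 in PANC-1, a small difference of -0.42 ± 0.0596 (limma adjusted p = 0.0127). CYR61 mock levels were 8.69 to 10.77 and 13.25 to 13.83, a difference of -3.78 ± 0.737 (limma adjusted p = 0.0254). The CYR61 difference was -2.81 without the miR-139 mock mean and -4.76 without the miR-143 mock mean. Without the miR-30c mock mean the limma adjusted p was 0.0993 for YAP1 and 0.128 for CYR61, and without the miR-30a mock mean it was 0.0775 and 0.149. The adjusted p over the 10 alternatives ran from 1.24e-05 to 0.0993 for YAP1 and from 0.000207 to 0.149 for CYR61. Channels of the lines did not overlap for either gene.

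The other 5 tested members did not pass with the 2 means per line. The difference of HCT116 minus PANC-1 was 0.28 ± 0.0771 for AMOT, 0.24 ± 0.0823 for AMOTL1, -0.03 ± 0.320 for AMOTL2, -0.10 ± 0.152 for LATS2 and -0.21 ± 0.0931 for TEAD1, with limma adjusted p of 0.0531, 0.0881, 0.951, 0.637 and 0.157. AMOT, AMOTL1 and TEAD1 channels did not overlap between lines, whereas those of AMOTL2 and LATS2 did. AMOTL2 turned on the HCT116 mock used: the difference was 0.40 without the miR-139 mock mean (limma adjusted p = 0.0251) and -0.46 without the miR-143 mock mean (limma adjusted p = 0.0205), with a range of 0.0205 to 0.999 over the alternatives. Under other settings AMOT passed without background correction, with the scanner software's signal and with 75th percentile scaling. There its limma adjusted p was 0.0229, 0.015 and 0.0422, and as the median over probes it was 0.888. AMOTL1 passed as the median over probes (limma adjusted p = 0.0365). Both also passed with the mock channels as 4 samples (limma adjusted p of 0.00159 and 0.00514), which counts the channels of a precursor apart. HCT116 was higher in each of these. LATS2 passed in 1, without the miR-143 mock mean, at -0.29 (limma adjusted p = 0.0424, range 0.0424 to 0.845), and TEAD1 in 1, with the mock channels as 4 samples (limma adjusted p = 0.0155, range 0.0155 to 0.485). Of the other lists, 9 of 17 tested YAP and TAZ targets were lower and 1 higher in HCT116, and 5 of 22 Hippo genes were lower and 7 higher. Among all 19505 genes tested, 20.8% were lower and 22.5% higher. A gene could enter this test through either line alone. Of the 9 lower targets, FOXF2 and TGFB2 were well above background in 0 HCT116 mock channels and AMIGO2 in 2. They entered through PANC-1, so that rule favoured a lower level in HCT116 for them.

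**Figure D5:**
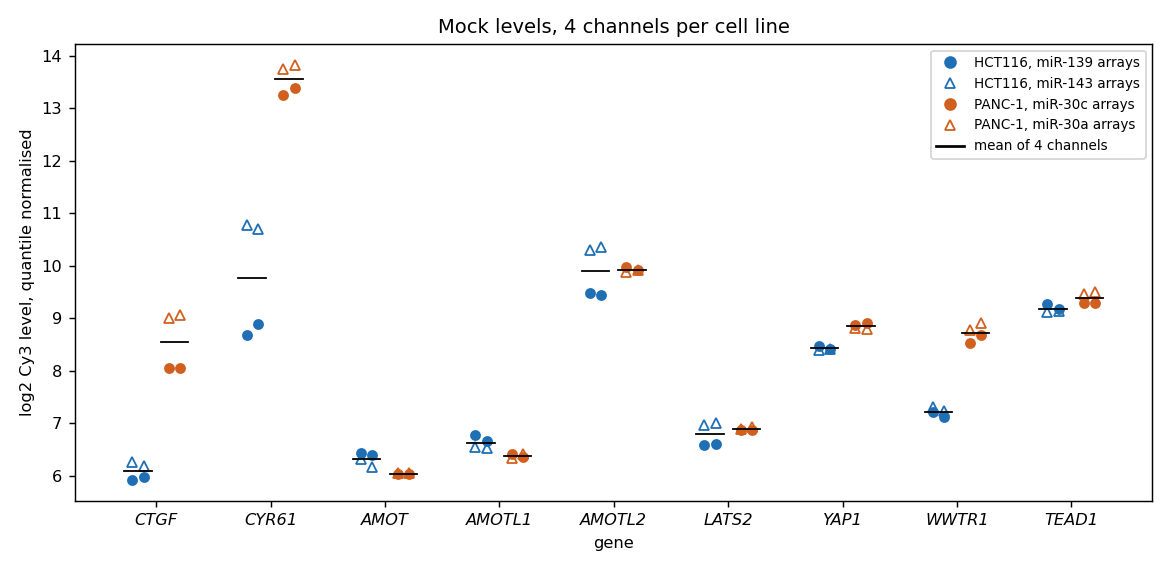
Log2 Cy3 level of the mock channels for the 9 detected genes, 4 channels per line, with HCT116 in blue and PANC-1 in orange, symbols for the precursor of the array and black bars for the mean of 4. CTGF, CYR61, WWTR1 and YAP1 lie lower in HCT116 with no overlap, and the CYR61 and AMOTL2 channels of HCT116 split by precursor.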

How the data were processed

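The authors deposited Agilent scanner output of 8 two-channel arrays (Feature Extraction 11.5.1.1, probes placed on hg19). Per the file headers, spot intensity was the mean of the spot pixels with a local background. The deposited log10 ratio of processed Cy5 over Cy3 was used, as log2, only as an alternative, and the deposited table held the same values.

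Here intensities were corrected with normexp (offset 50), normalised within arrays by loess without control spots, and averaged per probe without outlier spots, in R 4.3.3 (data.table version 1.17.8, limma 3.58.1). A gene took its probe with the highest mean signal. Levels between mock channels were quantile normalised. Mock lines were compared with limma and Benjamini-Hochberg adjustment over 19505 genes well above background in Cy3 on all 4 arrays of a line. The limma step was tested on simulated data. Tables and plots were made with Python 3.11.15, numpy 2.4.6, pandas 2.3.3 and matplotlib 3.10.9.

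Members and lists, written from general knowledge, were chosen with earlier results of these data known. All 10 members are named, with the 3 lowest and 3 highest detected genes of a list on an array described, and the 3 genes most like CTGF and AMOT. Columns without a sample numbered 0. Whether probes lie in coding or untranslated exons was not analysed here, and neither were protein motifs.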

Additional observations from a re-analysis of the deposited data

How the results depend on the processing

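Precision was limited by the number of arrays, 1 per miRNA, and for dim genes such as AMOT, and CTGF in HCT116, by signal over background. With an offset of 1, 1 member was at least 2-fold lower after miR-139-3p (AMOT), 1 lower after miR-143-3p (WWTR1) and 1 higher after miR-30c-2-3p (LATS2), and the scanner software's ratio gave the same counts of 1, 1 and 1. With median centring the counts were 4 higher after miR-30c-5p, and after miR-30a-3p 1 higher (CTGF) and 0 lower. Over all genes that setting raised the higher calls from 156 to 832 and from 82 to 1946 on these arrays, and took the lower calls on the latter from 242 to 46. Against the mean of the line's mock channels, 1 was lower after miR-139-5p (CYR61), 1 higher after miR-139-3p (LATS2) and 1 higher after miR-30a-3p (CTGF). Over all genes, 99 of 20443 were lower, 518 of 20708 higher and 83 of 22063 higher there. With the mock channel of the same array these counts were 41, 436 and 82. A 1.5-fold rule gave 1 lower after miR-143-3p, 4 higher after miR-30c-5p, 1 lower and 3 higher after miR-30c-2-3p, 1 lower after miR-30a-5p, and 2 lower and 1 higher after miR-30a-3p. Under that rule 224 to 2101 of all detected genes were lower and 154 to 1536 higher per array. The other 109 of 128 recomputed counts stayed within 1.5 times, most of them because they were 0 in both settings. Without the filter on dim probes no 2-fold count over all genes changed on any array, so the members' counts could not change there.

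The median of the targets moved as follows. After miR-30c-5p it was 0.54 without background correction, 0.63 with an offset of 1, 0.64 with the scanner ratio, 0.83 with median centring and 0.32 against the pooled mocks. After miR-30c-2-3p it was -0.18 with an offset of 1, 0.029 with median centring and -0.19 against the pooled mocks, and after miR-30a-5p it was 0.59 with median centring and 0.19 as the median over probes. After miR-30a-3p it was -0.12 with an offset of 1, -0.11 with the scanner ratio and 0.54 with median centring. In HCT116 the pooled mocks gave -0.28 after miR-139-5p, -0.025 after miR-143-5p and 0.25 after miR-143-3p. The Hippo median with median centring was 0.19 after miR-139-5p, -0.031 after miR-143-5p, 0.64 after miR-30c-5p, 0.20 after miR-30c-2-3p, 0.56 after miR-30a-5p and 0.66 after miR-30a-3p. After miR-143-5p it was -0.077 as the median over probes and -0.041 against the pooled mocks, and after miR-30a-5p it was 0.29 with an offset of 1 and 0.34 with the scanner ratio.

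Over all detected genes the scanner ratio gave 361 to 2452 lower and 397 to 2128 higher genes per array, against 41 to 857 and 12 to 436 with loess, and an offset of 1 gave 148 to 2113 and 45 to 1381. In these comparisons the cause was not tested. Between mock lines, 2 members were higher in HCT116 with the 4 mock channels as samples, and 1 without background correction, 1 with the scanner software's signal, 1 with 75th percentile scaling and 1 as the median over probes. In that order, these settings gave 6914, 4950, 4864, 4377 and 4174 higher among all genes, against 4397 with the processing used here. Leaving out 1 mock mean at a time, with the lone mean of a line taken to vary like the other line, gave 0 to 2 members higher and 2 to 6 lower, where over all genes 690 to 4787 were higher and 981 to 4026 lower, against 4397 and 4061. In such fits the LATS2 difference ran from -0.29 to 0.094 and the AMOTL2 difference from -0.46 to 0.40, which are the changes of sign. Without the filter on dim probes the limma adjusted p of CYR61 was 0.075. The lowest over its alternatives, 0.000207, came with the mock channels as 4 samples. No paired analysis was possible because each miRNA has 1 array and the labels give no replicate numbers.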
